A study of Mus musculus with 4 samples.

Results

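Histone H3 can be phosphorylated on serine 10 (H3S10ph) by signalling kinases within minutes of a stimulus, and the mark is best known at promoters and bodies of immediate early genes such as Fos. The 3' end of a gene is where its transcript is cut and polyadenylated and where RNA polymerase II slows and leaves the template. The 3'-end peaks described here are the H3S10ph peaks around such ends, away from any promoter. A peak was taken when it lay on an autosome, was at most 2000 bp wide, overlapped the window from 1 kb before to 1 kb after the annotated 3' end of a protein-coding gene, and did not come within 1 kb of a protein-coding transcription start site (TSS). The rule used position and width and no measure of signal. It took 2162 of 92241 autosomal peaks of that width, out of 93418 deposited peaks.

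Chromatin came from gastrocnemius, a fast calf muscle, of male C57BL/6 mice aged 5 months that were anaesthetised with xylazine and Zoletil. The stimulated group consisted of muscles taken directly after 50 lengthening (eccentric) contractions, each a tetanus of 600 ms at 100 Hz with the foot rotated through 30°, and spaced 30 s apart. The unstimulated group consisted of contralateral muscles from the other leg of mice under the same anaesthesia, so it is a within-animal control and not tissue from rested mice. Each of the 2 samples per group pooled muscle of 6 mice and was immunoprecipitated with 1 antibody, which leaves all cell types of the muscle in the mixture and hides the spread between animals. With 2 samples against 2, the smallest two-sided p of an exact permutation test is 0.333, so no comparison between the groups could reach 0.05.

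The lists differed in length before any choice of region. Unstimulated replicates 1 and 2 held 9094 and 32740 peaks, and stimulated replicates 1 and 2 held 10901 and 40683, so the replicates of a group differed more than the groups did. Unstimulated replicate 1 stood apart, with 522 peaks on chromosome X against 16 to 19 in the other lists, and with a median G+C content (GC) of 38.1% over peaks outside 3' ends against 43.8% to 44.4% elsewhere. Per the study's methods, the reads of deeper replicates were reduced to match the shallowest. The lists give no read numbers, so the depth behind a peak is still unknown. Results that rest on unstimulated replicate 1 are therefore given with and without it.

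The ends of genes carry a short signal, most often AATAAA or ATTAAA, just before the cut. The last 30 bases of the following genes are shown because these ends recurred across lists or belong to muscle genes, and the capitals mark the first such hexamer on the gene's strand. The sequences are from RefSeq GRCm38.p6, which has the chromosome lengths of mm10, and are written 5' to 3' on the strand of the gene. Zfp984 (chr4:147753974-147754003, minus strand), Zfp985 (chr4:147585169-147585198, plus) and Zfp979 (chr4:147611937-147611966, minus) are zinc finger genes that lie close together. Gm10354 (chr5:14974113-14974142, minus) and 4930572O03Rik (chr5:15652286-15652315, minus) are genes of chromosome 5 whose peaks have near-identical copies. Atp2a1 (chr7:126445858-126445887, minus) encodes the fast calcium pump of the sarcoplasmic reticulum, and Myh4 (chr11:67260417-67260446, plus) the myosin heavy chain of the fastest fibres. Plin4 (chr17:56100591-56100620, minus) encodes a protein of lipid droplets, and Tmem11 (chr11:60864452-60864481, minus) a protein of the inner mitochondrial membrane.
Zfp984: taactccAATAAAgctgaaagtttcaacaa
Zfp985: taactccAATAAAgctgaaagattcaacaa
Zfp979: tattgtaAATAAAgctgaatgattcaccaa
Gm10354: ttcttacaAATAAAaattgatttgcaagta
4930572O03Rik: ttcttatgAATAAAaattgatttgcatgta
Atp2a1: tttattgaaAATAAAtgacagaaaagtctg
Myh4: AATAAAttctgcagataattttgcaatcta
Plin4: agccAATAAAagctgtttctttttcattac
Tmem11: tattgaccATTAAAattatgagaatttcaa
The ends of Zfp984 and Zfp985 were identical at 29 of 30 bases, and those of Gm10354 and 4930572O03Rik at 27 of 30. The ends of the unrelated genes Atp2a1 and Myh4 matched at 10 of 30.

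Stimulated lists put a larger share of their peaks at 3' ends than unstimulated lists, in both replicates. Unstimulated replicates 1 and 2 held 167 and 655 3'-end peaks, which was 1.97% and 2.01% of their autosomal peaks of at most 2000 bp. Stimulated replicates 1 and 2 held 244 and 1096, or 2.26% and 2.71%. The shares of the groups did not overlap, with means of 1.99% ± 0.0298 (SD, n = 2) and 2.49% ± 0.317 (SD, n = 2) and a difference of 0.499 percentage points (exact permutation test, two-sided p = 0.333, the smallest possible). The numbers of 3'-end peaks did overlap between the groups, with a ratio of means of 1.63 (exact permutation p = 0.667), and followed the length of the list. Without unstimulated replicate 1 that ratio was 1.02, without unstimulated replicate 2 it was 4.01, without stimulated replicate 1 it was 2.67, and without stimulated replicate 2 it turned to 0.594.

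To ask how many peaks would meet the rule by position alone, each peak was allowed every position of its own chromosome outside sequence gaps, and the chance of meeting the rule was computed exactly for its width. That uniform placement gave 1.80% and 1.85% for the unstimulated lists and 1.84% and 1.89% for the stimulated lists. Observed over expected was therefore 1.09 in both unstimulated lists, 1.23 in stimulated replicate 1 and 1.44 in stimulated replicate 2. The ratio of the group means was 1.22 (exact permutation p = 0.333), and it was between 1.13 and 1.32 when any 1 list was left out. These ratios describe the lists and have no p of their own, since peaks of 1 list are not replicates.

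The order of the groups was not kept when GC was taken into account. Placement was repeated so that the central 400 bp of each peak fell only on positions of like GC. The expected shares then became 1.44% and 1.94% for the unstimulated lists and 2.01% and 2.04% for the stimulated lists. Observed over expected became 1.28 and 0.988 in the unstimulated lists and 1.07 and 1.27 in the stimulated lists, so the groups overlapped and the ratio of means was 1.03 (exact permutation p = 1). Over uniform placement the same central stretches gave 1.06, 1.08, 1.21 and 1.44 in that order. The overlap came from unstimulated replicate 1, the list of low GC, which alone moved up. Without it, both stimulated lists were above unstimulated replicate 2 on either scale.

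**Figure D1:**
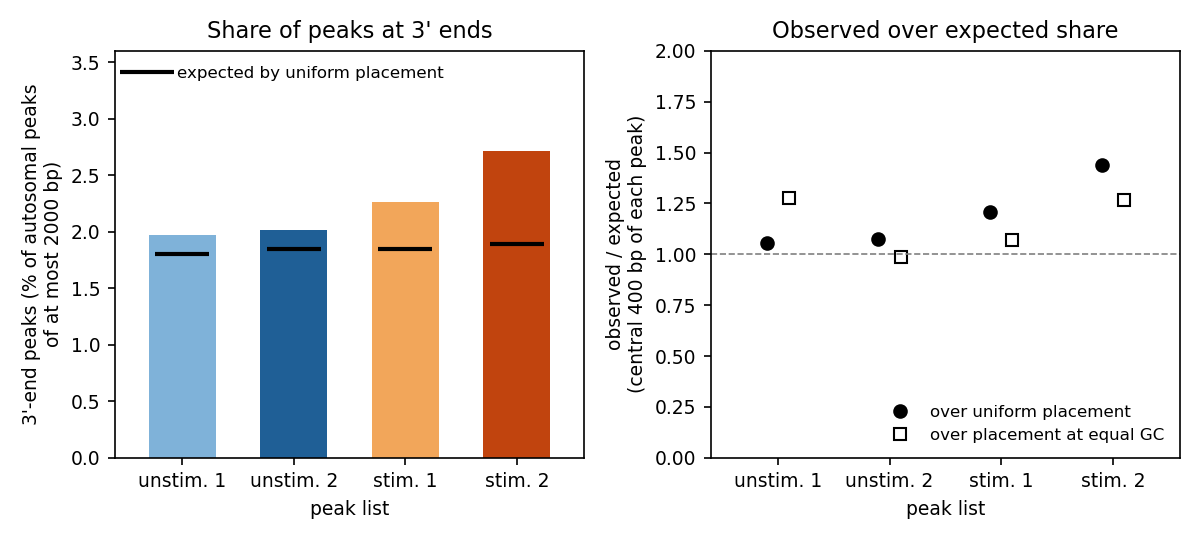
The left panel shows the percent of autosomal peaks of at most 2000 bp that are 3'-end peaks in each list (bars), with the share given by uniform placement (black lines). The right panel shows the observed share over that of uniform placement (filled circles) and of placement at equal GC (open squares), for the central 400 bp of each peak; each symbol is 1 list. The stimulated lists are above both unstimulated lists on the first scale (1.21 and 1.44 against 1.06 and 1.08), and the groups overlap on the second.

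Promoter peaks, those within 1 kb of a protein-coding TSS, differed between the lists by more than 3'-end peaks did. They made up 1.70% and 2.78% of the unstimulated lists and 4.01% and 6.52% of the stimulated lists, or 0.552, 0.878, 1.27 and 2.01 times the share given by uniform placement. The lists thus held 0.862, 1.38, 1.77 and 2.40 promoter peaks for each 3'-end peak. That ratio was higher in both stimulated lists than in both unstimulated lists, the most extreme order that 2 against 2 allows. Of the peaks that overlapped a 3' window, 9 and 77 in the unstimulated lists and 32 and 187 in the stimulated lists lay near a TSS and were left out by the rule. Peaks wider than 2000 bp that met the rest of the rule were few, at 3, 5, 6 and 14.

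The early genes at the centre of the stimulus response fell mostly outside the set, because they are short and their peaks came close to the promoter. Fos and Jun encode subunits of the transcription factor AP-1, and Egr1 a zinc finger factor. Fos had peaks of 3262 and 4205 bp in the stimulated lists, with fold enrichments of 4.22 and 4.55, and Jun and Egr1 also had wide peaks there that came within 1 kb of the TSS. Jund and Ier2 had peaks over the 3' window in both stimulated lists that were close to a TSS, and Junb had none over its 3' window. The only 3'-end peak of these 6 genes was that of Fos in unstimulated replicate 2 (chr12:85475191-85476627), with a fold enrichment of 2.27. Enrichment here is the deposited ratio of a peak over its background.

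3'-end peaks were weak, as were most peaks in these lists. Their median fold enrichment was 2.25 and 2.08 in unstimulated replicates 1 and 2 and 2.26 and 2.09 in stimulated replicates 1 and 2. The values followed the replicate number and not the stimulus, and the medians of gene body peaks were close to them, at 2.25, 2.09, 2.27 and 2.09. Their deposited −log10 p ranged from 2.08 to 7.71 in unstimulated replicate 1, from 2.02 to 4.06 in unstimulated replicate 2, from 2.04 to 4.74 in stimulated replicate 1 and from 2.00 to 4.34 in stimulated replicate 2. A q of 0.05 or less was reached by 3 of them, all in unstimulated replicate 1. With peaks below a −log10 p of 3 left out, 23, 21, 41 and 38 3'-end peaks remained, and observed over expected was 1.28 and 1.30 in the unstimulated and 1.24 and 1.65 in the stimulated lists, so that the groups overlapped. That limit has the value of the calling cutoff given in the study's methods. Peaks were called there with the broad setting, and whether it used another cutoff is not given. Most of the deposited 3'-end peaks had a −log10 p below the limit, which does not show that they missed the authors' cutoff. In all, 2039 of the 2162 3'-end peaks (94.3%) were below it. The limit was reached by 13.8%, 3.21%, 16.8% and 3.47% of 3'-end peaks in the order of the lists. Of gene body peaks, 11.7%, 2.66%, 16.8% and 2.99% reached it, so values below it were not particular to gene ends. With a limit of 2.5, observed over expected was 1.15 and 1.12 in the unstimulated against 1.22 and 1.52 in the stimulated lists, without overlap.

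The peaks did not gather on the 3' end itself. In bins of 500 bp out to 5 kb on either side, peak centres in stimulated replicate 2 were 1.22 to 1.61 times the expected number in every bin, and the bin just before the end held 1.36 times. In that same bin stimulated replicate 1 had 1.00, unstimulated replicate 1 had 1.03 and unstimulated replicate 2 had 0.879. Stimulated replicate 1 was highest between 500 and 1000 bp on either side, at 1.51 inside the gene and 1.45 beyond it. The excess in stimulated replicate 2 thus covered the last and the following 5 kb of genes alike.

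**Figure D2:**
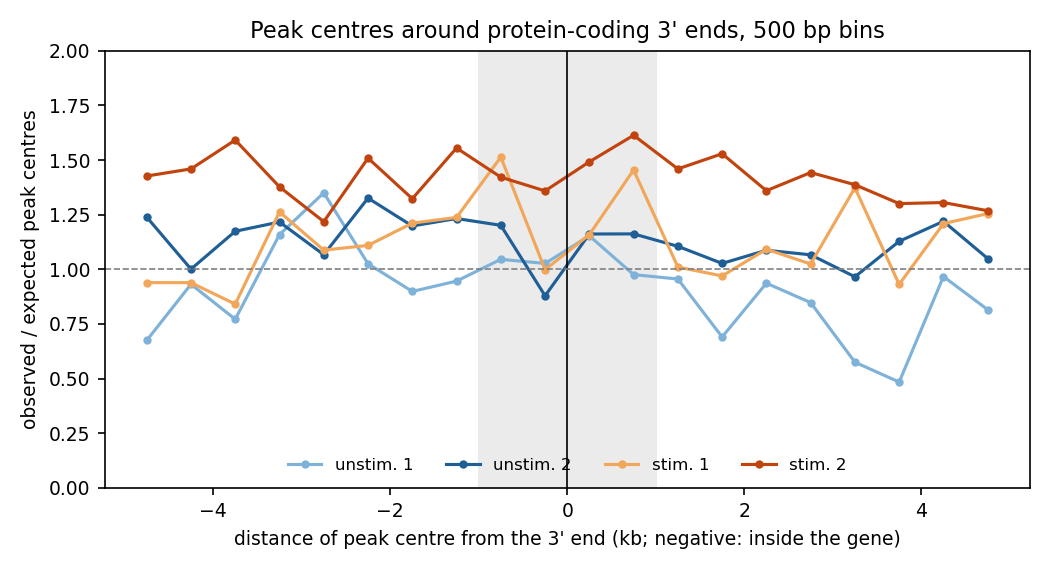
Peak centres around protein-coding 3' ends in bins of 500 bp, as observed over expected by uniform placement (y axis) against distance from the end in kb (x axis; negative is inside the gene), with 1 line for each list and the 1 kb window in grey. Stimulated replicate 2 lies at 1.22 or above in every bin, and no list has its maximum in the bin before the end.

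Within the window, the peaks sat on the parts of genes much as the window itself is made up. Of centres inside a window, 39.7% and 34.1% in the unstimulated lists and 33.7% and 33.9% in the stimulated lists were in 3' untranslated regions (UTRs), which make up 35.9% of window bases. Outside genes lay 43.4%, 45.2%, 42.1% and 44.6%, against 43.4% of bases. Coding exons held 5.15%, 7.41%, 6.44% and 8.87%, against 6.25%. The end base itself was covered by 27.5%, 15.6%, 18.9% and 21.3% of the peaks. AATAAA was present in the last 40 bases of 57.0% of all 20719 eligible genes, those with a place in their window for a peak that meets the rule, and in 58.6%, 58.6%, 62.3% and 59.5% of genes with a 3'-end peak. ATTAAA was present in 15.4% of eligible genes, and in 17.8%, 16.7%, 17.2% and 15.1%. On the opposite strand the same stretches held AATAAA in 5.28% and ATTAAA in 4.88% of eligible genes.

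GC differed between lists more than between conditions. The median GC of 3'-end peaks was 38.7% in unstimulated replicate 1, 46.5% in unstimulated replicate 2, 47.0% in stimulated replicate 1 and 47.6% in stimulated replicate 2. The groups did not overlap and their means differed by 4.69 percentage points (exact permutation p = 0.333), but the difference was 0.793 points without unstimulated replicate 1 and 8.58 points without unstimulated replicate 2. In the 3 lists other than unstimulated replicate 1, 3'-end peaks had a higher median GC than gene body peaks (44.7% to 45.3%) and intergenic peaks (42.9% to 43.4%) and a lower one than promoter peaks (49.2% to 52.8%). In unstimulated replicate 1 the classes lay close together, between 37.5% and 39.9%.

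The stimulated lists exceeded placement mainly at GC-rich ends. Eligible genes were split into 3 groups of near-equal size by the GC of their window, at 41.8% and 47.9%. At the ends of highest GC, observed over expected was 0.226 and 1.23 in the unstimulated lists and 1.54 and 2.13 in the stimulated lists. At the ends of lowest GC it was 2.30 in unstimulated replicate 1 and 1.01, 1.04 and 1.01 in the other lists, which were alike there. Unstimulated replicate 1 ran in the opposite direction to the other lists, with 127 of its 167 peaks at the ends of lowest GC and 10 at those of highest GC.

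**Figure D3:**
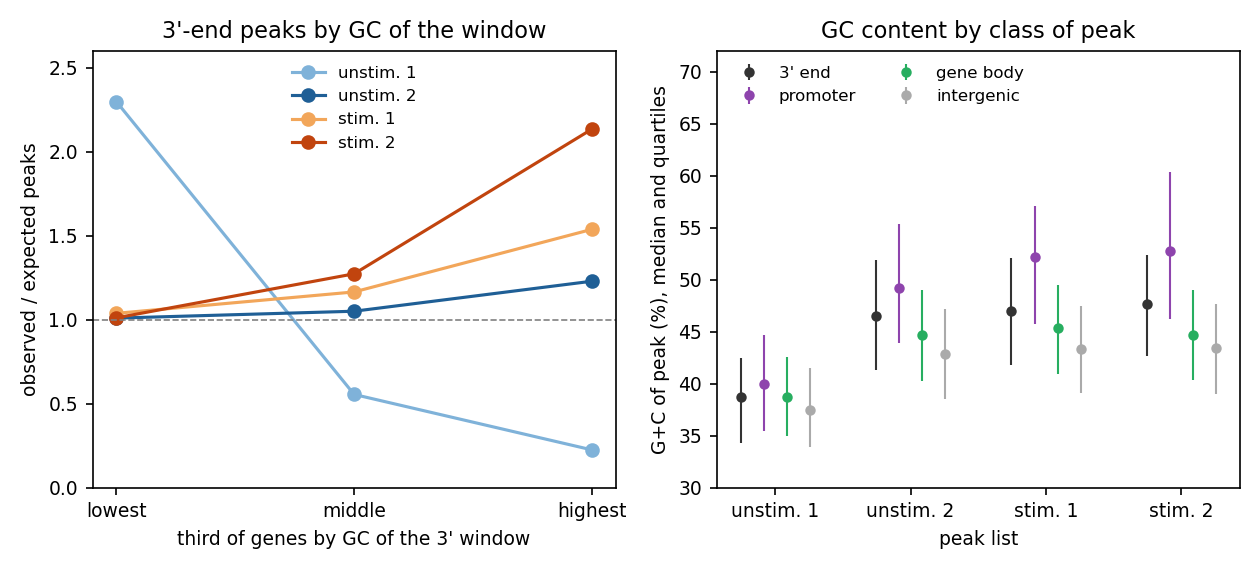
The left panel shows 3'-end peaks over the number expected by uniform placement (y axis) for 3 near-equal groups of genes by GC of the window (x axis), with 1 line for each list. The right panel shows the median and quartiles of peak GC in percent for 3'-end, promoter, gene body and intergenic peaks of each list. Stimulated replicate 2 rises from 1.01 to 2.13 from the lowest to the highest group, and unstimulated replicate 1 falls from 2.30 to 0.226.

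Ends that face another gene's end differed between lists in the same way. A gene with another protein-coding 3' end on the opposite strand within 2 kb is called convergent here, and 2930 eligible genes were of this kind. Their observed over expected was 0.628 and 1.28 in the unstimulated and 1.26 and 2.01 in the stimulated lists, against 1.14, 1.07, 1.22 and 1.38 for the other 17789 genes. The windows of convergent genes had a median GC of 49.7% against 44.1% for the others, and the part of GC in that difference was not tested. Gene length gave no order common to the lists. In stimulated replicate 2, observed over expected was 1.47 for genes under 10 kb, 1.45 for 10 to 50 kb, 1.54 for 50 to 200 kb and 1.27 above 200 kb. In stimulated replicate 1 it was 1.06, 1.50, 1.04 and 0.762, in unstimulated replicate 2 it was 1.07, 1.09, 1.21 and 1.13, and in unstimulated replicate 1 it was 0.791, 1.26, 1.15 and 1.21.

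At the level of genes, few ends recurred. A 3'-end peak was found at 174 (0.84%) and 707 (3.41%) of 20719 eligible genes in unstimulated replicates 1 and 2, and at 268 (1.29%) and 1175 (5.67%) in stimulated replicates 1 and 2. In all, 2186 genes had one in at least 1 list. In both stimulated lists there were 25 genes (0.121%), in both unstimulated lists 16 (0.0772%), and in 3 or 4 lists 14 (0.0676%). Of the 25 genes, 17 were found in the stimulated pair alone, and of the 16 genes, 7 in the unstimulated pair alone. The stimulated lists held more genes to share (268 and 1175 against 174 and 707), and no expected number was computed for these counts. Spen and Zbtb17, among the 17, were counted through the same peaks. As shares of each list, the 25 genes were 9.33% of stimulated replicate 1 and 2.13% of stimulated replicate 2, and the 16 were 9.20% of unstimulated replicate 1 and 2.26% of unstimulated replicate 2. Lists of different conditions shared genes too, with 58 between unstimulated replicate 2 and stimulated replicate 2 (8.20% and 4.94% of them) and 31 between unstimulated replicate 2 and stimulated replicate 1 (4.38% and 11.6%). Among the 31 were Ugt1a1, Ugt1a2, Ugt1a5, Ugt1a6a, Ugt1a6b, Ugt1a8, Ugt1a9 and Ugt1a10, neighbours counted through the same peak of unstimulated replicate 2. Their peaks in the lists did not overlap, so the 31 genes are fewer separate places.

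Sarcomere genes were more frequent among them than genes in general, in stimulated and unstimulated lists alike. Of 55 genes of the sarcomere and Z-disc, 1 and 5 had a 3'-end peak in unstimulated replicates 1 and 2 (1.82% and 9.09%) and 3 and 7 in stimulated replicates 1 and 2 (5.45% and 12.7%). Each share was above that of all eligible genes in the same list (0.84%, 3.41%, 1.29% and 5.67%), in unstimulated replicate 1 by a single gene. Observed over expected was 2.18, 3.29, 5.04 and 3.05. In all, 14 of the 55 had one in at least 1 list, against 2186 of 20719 eligible genes (10.6%). Their windows had a median GC of 46.9%, against 44.7% for all eligible genes. Of the 6 fibre markers Ckm, Acta1, Tnnt3, Pvalb, Atp2a1 and Tnnc2, the last 3 had a 3'-end peak in some list.

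Among sarcomere genes, Myh4 had 3'-end peaks in unstimulated replicate 1 (chr11:67260833-67262008, 2.40-fold), unstimulated replicate 2 (chr11:67258559-67259673, 2.34-fold, and chr11:67260531-67261979, 2.07-fold) and stimulated replicate 2 (chr11:67260522-67261674, 2.49-fold). One peak from each of the 3 lists lay over the same stretch just beyond the gene's end, in both conditions. Des, the intermediate filament desmin, and Tnnc2, fast troponin C, had one in stimulated replicate 1 only, at 2.28-fold and 2.27-fold. Tpm2, a tropomyosin, had one in stimulated replicate 2 only, at 2.45-fold, and Myh2, the myosin of fast oxidative fibres, in unstimulated replicate 2 only, at 2.02-fold.

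Of 30 genes of excitation-contraction coupling and calcium handling, 2 had a 3'-end peak in each of the 4 lists (6.67%, against 0.84%, 3.41%, 1.29% and 5.67% of all eligible genes). In stimulated replicate 2 the share was close to that of all genes. In all, 5 of the 30 had one in any list, against 2186 of 20719 genes (10.6%). Atp2a1 had one in unstimulated replicate 1 (chr7:126445261-126446277, 2.18-fold), unstimulated replicate 2 (chr7:126443642-126445399, 2.36-fold) and stimulated replicate 1 (chr7:126445204-126445483, 2.47-fold), and none in stimulated replicate 2. Pvalb, the calcium buffer parvalbumin, had one in unstimulated replicate 2 (chr15:78188223-78190114, 2.58-fold) and another in stimulated replicate 1 (chr15:78191967-78192813, 2.34-fold), which did not overlap. Trdn, triadin of the calcium release complex, had one in unstimulated replicate 1 only. Jph2, which joins the membranes of the triad, and Srl, the luminal protein sarcalumenin, had one in stimulated replicate 2 only.

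Of 23 genes of muscle energy metabolism, 2 had a 3'-end peak in unstimulated replicate 2 and 5 in stimulated replicate 2 (8.70% and 21.7%, against 3.41% and 5.67% of all eligible genes), and none in the other lists. Aldoa, aldolase of glycolysis, had separate peaks in unstimulated replicate 2 (chr7:126796057-126796336, 2.11-fold) and stimulated replicate 2 (chr7:126794417-126794969, 2.15-fold). Gys1, muscle glycogen synthase, did likewise (chr7:45455313-45456198, 2.09-fold, and chr7:45456857-45457840, 2.07-fold). Ampd1, AMP deaminase, Hk2, hexokinase 2, and Pgam2, phosphoglycerate mutase, had one in stimulated replicate 2 only, between 2.02-fold and 2.21-fold. Respiratory chain genes, 91 in all, had 1, 1, 1 and 8 genes with a peak in the order of the lists above, and 76 ribosomal protein genes had 0, 1, 1 and 4. The respiratory shares were 1.10% in the first 3 lists and 8.79% in stimulated replicate 2, and the ribosomal shares 0, 1.32%, 1.32% and 5.26%, against 0.84%, 3.41%, 1.29% and 5.67% of all eligible genes.

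Of 42 eligible immediate early genes, 1 and 1 had a 3'-end peak in the unstimulated lists (2.38% each) and 2 and 7 in the stimulated lists (4.76% and 16.7%). The share of all genes was 0.84%, 3.41%, 1.29% and 5.67%, so both stimulated lists and unstimulated replicate 1 were above it and unstimulated replicate 2 was below. The 2 genes of stimulated replicate 1 were Dusp1, a MAP kinase phosphatase (chr17:26506084-26506475, 2.54-fold), and Atf3, a transcription factor of the stress response (2.21-fold). The 7 of stimulated replicate 2 were Btg2, Klf2, Gadd45b, Dusp6, Klf10, Maff and Nr4a1, between 2.04-fold and 2.21-fold. No immediate early gene had such a peak in both stimulated lists. In the unstimulated lists they were Btg1 (2.59-fold) and Fos. Of 11 genes of the AP-1 family, 2 had one in any list, Fos and Atf3, against 2186 of 20719 eligible genes (10.6%). By list the AP-1 shares were 0 and 9.09% in the unstimulated and 9.09% and 0 in the stimulated lists.

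Of 29 targets of serum response factor (SRF), 0 and 4 had a 3'-end peak in the unstimulated lists and 1 and 2 in the stimulated lists. The shares were 0, 13.8%, 3.45% and 6.90%, against 0.84%, 3.41%, 1.29% and 5.67% of all eligible genes, so that of stimulated replicate 2 was near the share of all genes. Actb, cytoplasmic actin, was the only listed gene found in both stimulated lists, with adjacent but separate peaks in stimulated replicate 1 (chr5:142902783-142903200, 2.25-fold) and stimulated replicate 2 (chr5:142901357-142902720, 2.28-fold). Vcl, vinculin, had one in stimulated replicate 2. Csrp1, Zyx, Cnn1 and Fos had one in unstimulated replicate 2 only. Of 23 markers of endothelial, immune and satellite cells, 1, 0, 0 and 1 had one, namely Col1a2 in unstimulated replicate 1 and Ptprc in stimulated replicate 2.

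Large gene families differed among themselves and between lists. For all eligible genes, observed over expected was 1.09, 1.09, 1.23 and 1.44 in the order of the lists. The windows of 1124 olfactory receptor genes had a median GC of 37.4%. Their observed over expected was 1.58 and 0.882 in the unstimulated lists and 0.589 and 0.303 in the stimulated lists. There, 7 and 13 genes had a peak (0.623% and 1.16%, against 1.29% and 5.67% of all eligible genes). The 385 zinc finger genes named Zfp had windows of 41.5%, and gave 5.56, 1.04, 1.70 and 1.46. The values of unstimulated replicate 2 and stimulated replicate 2 were near those of all genes. Of the 16 Zfp genes with a peak in unstimulated replicate 1, 7 lay on chromosome 4, all between 146449023 and 147809788. Kinase and phosphatase genes, 197 in all with windows of 46.8%, gave 1.96, 1.32, 1.49 and 2.58, with 20 genes in stimulated replicate 2 (10.2%, against 5.67%). The 327 vomeronasal receptor genes, with windows of 39.3%, gave 0.898, 0.959, 1.66 and 0.526. Of 53 keratin genes, with windows of 49.2%, 1 had a peak, in stimulated replicate 2. Placement gave few for them too, at 0.391, 1.75, 0.594 and 2.36 peaks. The part of window GC in the differences between families was not tested. Within unstimulated replicate 2 and the stimulated lists the olfactory receptor genes were below placement and the kinase genes above it.

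**Figure D4:**
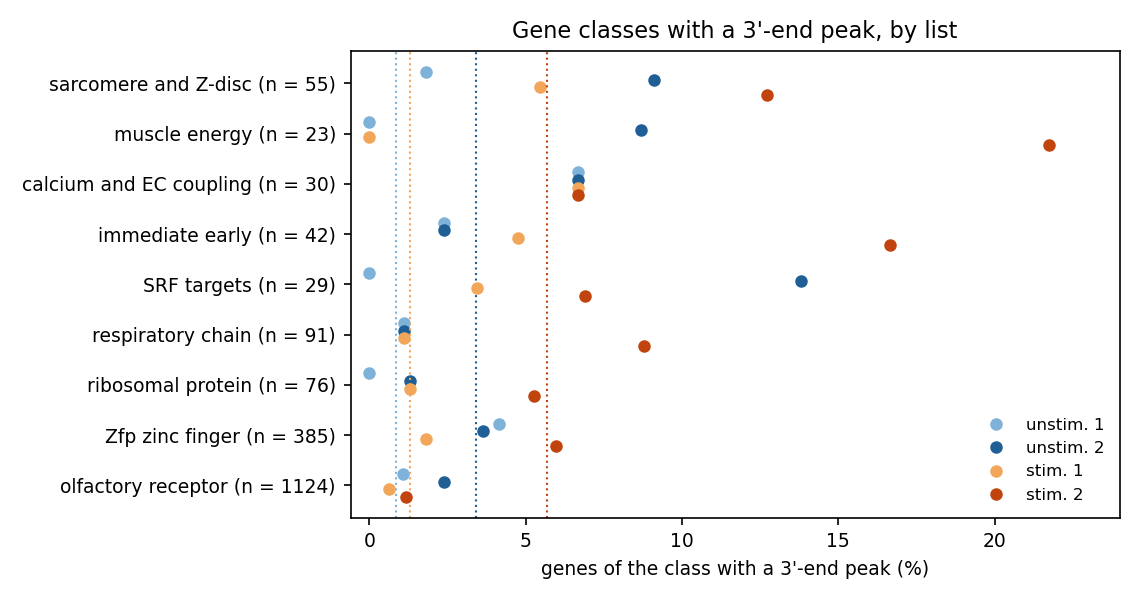
Percent of the genes of each class (y axis, with the number of eligible genes) that have a 3'-end peak (x axis) in each of the 4 lists (points), with the percent over all eligible genes of the same list as a dotted line of the same colour. Sarcomere genes lie to the right of the line in all 4 lists, and olfactory receptor genes lie to the left of it in 3.

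The ends found in both stimulated lists alone, by highest enrichment, held genes of varied function. Tmem11 had peaks of 2.55-fold and 2.16-fold in stimulated replicates 1 and 2 (chr11:60864706-60865841 and chr11:60863421-60864948), which overlapped. Pnpla1, a lipase-like enzyme of the skin barrier, had 2.22-fold and 2.69-fold, and Brdt, a bromodomain protein of the testis, 2.34-fold and 2.21-fold, both with overlapping peaks. Gli3, a transcription factor of the hedgehog pathway, had 2.58-fold and 2.21-fold, and Cdh4, a cadherin, 2.21-fold and 2.15-fold, with peaks that did not overlap. Fam217a had 2.15-fold and 2.28-fold. Spen and Zbtb17, transcriptional regulators that converge on chromosome 4 and whose ends overlap, had separate peaks on either side of them, and Gm26920 on chromosome 7 had separate peaks too. Further such genes were Gtpbp2, Pcif1, Mr1, Psmd6, Smim20, Fam71d and B430218F22Rik.

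Genes with a 3'-end peak in both unstimulated lists alone were Prl2c3, Fign, Usp44, Mex3c, Olfr180, Zfp992 and Ugt1a7c. The peaks of Ugt1a7c (chr1:88220925-88221569 and chr1:88218796-88219266) did not overlap. The latter, of unstimulated replicate 2, was also counted for the other Ugt1a genes named above, which had a 3'-end peak in stimulated replicate 1. The Ugt1a locus was thus not particular to the unstimulated pair. Fign, a microtubule-severing enzyme, had overlapping peaks of 2.21-fold and 2.03-fold. Prl2c3, a prolactin family gene of the placenta, had overlapping peaks of 2.53-fold and 2.14-fold, and both had 3 near-identical copies elsewhere in the genome. Usp44, a deubiquitinase, had overlapping peaks of 2.35-fold and 2.05-fold. The median GC of these ends is low in the main: the peaks of Prl2c3 had 31.0% and 31.1%, and those of Olfr180 32.9% and 35.0%.

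Of the 14 genes in 3 or 4 lists, 6 had a peak with a near-identical copy and 8 did not. The 3 genes in all 4 lists, Gm21083, Speer4e and Zfp984, were among the 6, a copy being another place in the genome with 95% identity over 80% of the peak. Among 3'-end peaks, that of Gm21083 had the highest enrichment of unstimulated replicate 2 (2.78-fold) and 3.57-fold, 2.66-fold and 2.53-fold in unstimulated replicate 1, stimulated replicate 1 and stimulated replicate 2. The nearby 4930572O03Rik had the highest among the 3'-end peaks of unstimulated replicate 1 (chr5:15651163-15652296, 3.97-fold), with 6 such copies, and Gm10354 had peaks with 9 to 10 copies in 3 lists. Zfp985 had peaks in the unstimulated lists and stimulated replicate 1, of which that of unstimulated replicate 2 had 2 copies. The near-identical ends of Gm10354 and 4930572O03Rik and of Zfp984 and Zfp985 are printed above. Per the study's methods, multi-mapping reads were removed. Which copy of such a stretch carried the mark was not tested here.

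The 8 genes without a copy of that kind each had a 3'-end peak in 3 lists. Hdgfl2, a histone reader, and Plin4 converge on chromosome 17 and shared peaks in unstimulated replicate 1 (chr17:56099658-56101286, 2.43-fold), unstimulated replicate 2 (chr17:56100378-56101291, 2.39-fold) and stimulated replicate 1 (chr17:56099950-56100395, 2.22-fold). Each of these peaks also overlapped a peak of stimulated replicate 2, which did not meet the rule for a 3'-end peak. Slc30a4, a zinc transporter, had overlapping peaks in the 3' UTR in unstimulated replicate 1 (1.73-fold), unstimulated replicate 2 (1.90-fold) and stimulated replicate 1 (1.99-fold, with the highest −log10 p among the 3'-end peaks of that list, 4.74), with 1 copy at the looser limit of 90% identity over 50%. Wbp1l had peaks of 2.27-fold, 2.25-fold and 2.15-fold in the stimulated lists and unstimulated replicate 2. Chia1, a chitinase, had peaks in both stimulated lists and unstimulated replicate 1. Zfp979 had them in the same 3 lists, between 2.01-fold and 2.22-fold. Atp2a1 and Myh4, described above, complete the set.

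Other strong 3'-end peaks occurred in a single list. In stimulated replicate 1 they were beyond the end of Amhr2 (chr15:102455626-102455891, 3.01-fold), within Cd55b (2.85-fold) and at 1700003E16Rik (2.78-fold). In stimulated replicate 2 the strongest (chr17:47684614-47685739, 2.90-fold) lay at a locus where the windows of Usp49, Tomm6, Gm20517 and Gm21981 overlap, followed by Lmbrd1 (2.71-fold). In unstimulated replicate 2 Jcad had one (2.75-fold), and in unstimulated replicate 1 Amy2a4 (3.48-fold), an amylase gene with 3 near-identical copies. None of these peaks overlapped a peak of another list.

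3'-end peaks overlapped peaks of another list more often than the rest of the same list did. Of 3'-end peaks, 14.4% and 7.94% in unstimulated replicates 1 and 2 and 14.3% and 4.29% in stimulated replicates 1 and 2 overlapped a peak of any other list by at least 1 bp, against 5.82%, 4.2%, 7.25% and 3.42% of all autosomal peaks of at most 2000 bp. They were also wider, with a median width of 535, 494, 423 and 527.5 bp against 370, 421, 359 and 466 bp for gene body peaks, as the rule favours wide peaks. Near-identical copies were found for 9.20%, 4.20%, 7.23% and 1.75% of the 3'-end peaks that could be searched, against 3.15%, 1.89%, 2.78% and 0.969% of other peaks. Peaks with no copy found included those that could not be searched. Among them, 11.8%, 6.53%, 11.0% and 3.81% of 3'-end peaks still overlapped another list, against 5.23%, 4.45%, 6.54% and 3.42% of gene body peaks. The share was thus higher than in gene bodies in every list, by the least in stimulated replicate 2.

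**Figure D5:**
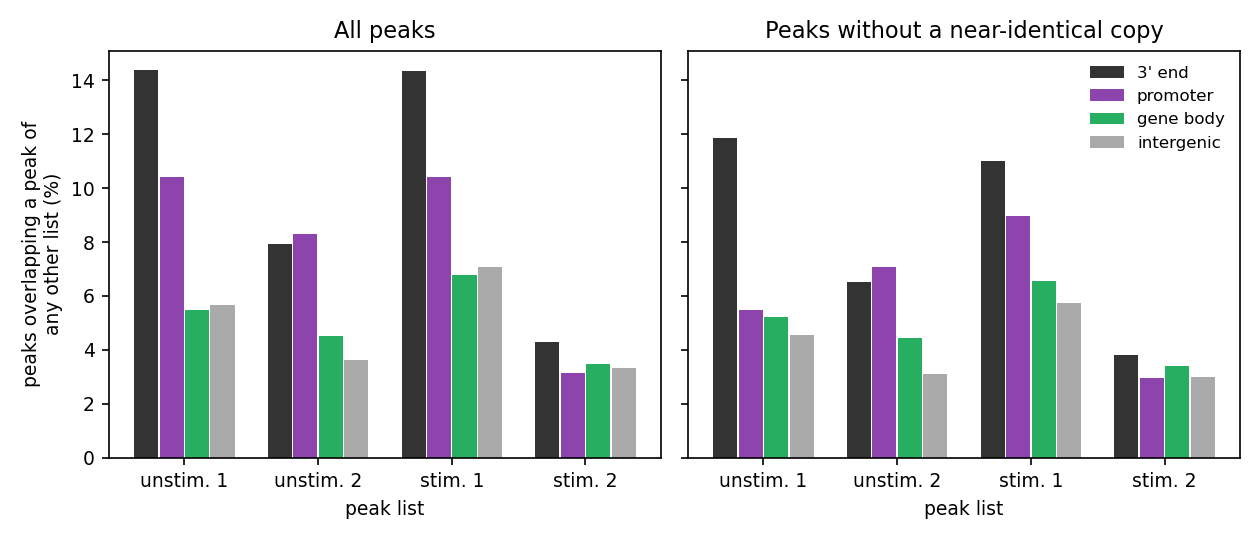
Percent of peaks that overlap a peak of any other list (y axis) for each list (x axis) and class of peak (bars), for all peaks on the left and, on the right, for peaks with no near-identical copy found, including those that could not be searched. The 3'-end bars are the highest in both panels except in unstimulated replicate 2, where promoter peaks are higher.

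The sharing was not confined to lists of the same condition. The other replicate of the same condition overlapped 8.38% and 2.29% of 3'-end peaks in the unstimulated lists and 8.20% and 1.82% in the stimulated lists, against 2.78%, 0.805%, 3.65% and 0.967% of the other peaks. The means of the groups differed by -0.326 percentage points, stimulated minus unstimulated (exact permutation p = 0.667). Placement of each 3'-end peak at all positions that meet the rule gave 1.72%, 0.424%, 2.84% and 0.669%, so the observed shares were 4.87, 5.40, 2.89 and 2.73 times higher. Across conditions, 7.78% of the 3'-end peaks of unstimulated replicate 1 overlapped stimulated replicate 1, 11.5 times the placement value, and 5.04% of those of unstimulated replicate 2 overlapped stimulated replicate 2, 1.75 times. These few overlaps included near-identical copies. With peaks that have such a copy left out, the overlaps within a condition fell from 14, 15, 20 and 20 to 9, 9, 15 and 15. Those across conditions just given fell from 13 to 8 and from 33 to 27. Of 167 3'-end peaks in unstimulated replicate 1, 143 were in no other list, and of 1096 in stimulated replicate 2, 1049 were.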

How the data were processed

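H3S10ph ChIP-seq peak lists of 4 samples were used, with the groups taken from the sample titles. Per the study's methods, the authors mapped reads to mm10, removed multi-mapping reads, reduced the reads of deeper replicates to match the shallowest and called broad peaks for each sample with MACS2 2.1.1 (version per the submitters' processing notes) against input DNA. The deposited lists give each peak's fold enrichment, a ratio over background, and the −log10 p and −log10 q that the authors obtained from MACS2. The methods name a calling cutoff of 0.001, which is 3 on the −log10 scale, whereas deposited values go down to 2.00. Whether the broad setting used another cutoff is not given. Read counts are not given, so no count test was run.

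Gene ends and TSSs were from GENCODE M21, and sequence from RefSeq GRCm38.p6. Expected shares were computed exactly, with equal chance for all positions outside gaps, and for GC with central windows of 400 bp, a grid of 200 bp and GC bins of 2 points. Near-identical copies were searched with blastn 2.17.0 with repeat-masked bases left out of the seeds. Python 3.11.15, numpy 2.4.6 and pandas 2.3.3 were used, and the placement code was tested on simulated data. Groups were compared by exact permutation of samples, two-sided. Whether the samples of a group came from different mice is not given, so p-values measure the spread between these samples. Per the study, both groups came from the legs of the same mice. The permutation took the samples as unpaired, because which pools belong together is not given.

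Named genes were those with a 3'-end peak in both lists of a condition (for each condition, up to 10 by rank of enrichment, first those absent from the other condition; the rest are listed by name), those in 3 or 4 lists, the 3 highest enrichments of each list, listed genes in both lists of a condition, and Fos, Jun, Junb, Jund, Egr1 and Ier2. One gene that this rule names is not reported here. Listed genes with a peak in 1 list were named after their values were seen. The set of peaks, the gene lists and the tests were chosen with earlier results of these data known. Alternatives covered the limits of −log10 p, an equal number of top peaks, the window, the TSS distance, peak width, transcript ends, GC, copies, and each list left out.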

Additional observations from a re-analysis of the deposited data

Results flagged for a closer look

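Chromosome X was outside the autosomal set. Unstimulated replicate 1 had 6 peaks of at most 2000 bp there that met the rest of the rule at a 3' end, among 502 such peaks on that chromosome, against 0 in unstimulated replicate 2, 1 in stimulated replicate 1 and 0 in stimulated replicate 2. Uniform placement of those 502 peaks gave 6.23 at 3' ends, so the number followed that of the peaks on the chromosome. It stands out only because the other lists had 15 to 18 peaks of that width on chromosome X.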

How the results depend on the processing

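The direction of the share, of observed over expected and of the GC difference was kept under every alternative run. Observed over expected ranged from 1.03 (equal GC, exact permutation p = 1, groups overlapping) to 1.29 (no TSS exclusion) across settings other than leaving out a list, and was 1.12 with a −log10 p limit of 3 (exact permutation p = 1). The ratio of numbers ranged from 0.594 to 4.01 when 1 list was left out, and reversed without stimulated replicate 2. With 1 list left out, the difference in share ranged from 0.275 to 0.723 points, the ratio of observed over expected from 1.13 to 1.32, and the GC difference from 0.793 to 8.58 points. The difference in overlap with the other replicate, -0.326 points as reported, has no stable sign. It ranged from -3.51 to 2.86 points when 1 list was left out, and was reversed at 1.34 with a window of 2 kb, 0.0222 with no TSS exclusion, 0.00753 with peaks of any width and 0.517 with the ends of all transcripts. It was also reversed at 0.323 without peaks that have a near-identical copy and at 1.80 without those with a copy at 90% identity, both chosen after seeing the data. The cause was not tested. Within replicate numbers (a replicate block) the ratio of numbers was 1.56 and that of observed over expected 1.22. The other differences were identical under that block. That identity holds by arithmetic when each number has 1 list of each group, so it is no check. Deviations of same-numbered lists over 20719 genes had a correlation of 0.00345, and whether same-numbered pools hold the same mice is not given in the sources used here, so the number was not taken as a pairing. Within both numbers the stimulated list had more 3'-end peaks (244 against 167, and 1096 against 655). Weak peaks, unknown depth and 2 pools of mice for each group limit all comparisons.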
